A study of Homo sapiens with 8 samples.

Results

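The peroxisome is the organelle that shortens very long and branched fatty acids and makes the first intermediates of ether lipids. The genes described here are 35 genes of that organelle, 13 for its biogenesis and 22 for its lipid enzymes, transporters and membrane proteins, out of 15852 genes in the deposited count table. They were chosen by matching a list of symbols to the table, which holds them all. Enough counts for a test were present in 33 of them, every biogenesis gene included, and not in CRAT and FAR2. Of those 33, 9 rose and 2 fell after BOLA3-L knockdown, or 33.3% in all, near the 30.7% of all tested genes that changed (15.0% rose and 15.6% fell). PHYH, the hydroxylase that starts the breakdown of phytanic acid, rose most, to 149% of control, followed by PEX10 and PEX7 at 135% each.

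RNA was sequenced from KYSE150, an established line of esophageal squamous cell carcinoma, in 4 control libraries and 4 libraries of cells with the genotype ShBOLA3-L, a knockdown of the BOLA3-L isoform. The labels give no treatment for either group, and no vector for the controls. Nothing in the labels tells if the knockdown is 1 clone or if each library had its own culture, so p-values measure the spread between these libraries, which may be technical. BOLA3, which helps place iron-sulfur clusters on mitochondrial enzymes, was counted at 19.1 to 21.8 CPM (counts scaled to a common library size, after TMM normalization) in controls and at 6.06 to 7.29 CPM after knockdown. Its log2 change was -1.66 (SE 0.0821, edgeR adjusted p 6.89e-11; exact two-sided permutation p 0.0286, the smallest that 70 assignments allow). The counts are per gene, so the L isoform itself was not measured. Depth was 31178036 to 35147860 counts per library, where 3 counts equal 0.0854 to 0.0962 CPM. All 6 squamous epithelial markers checked were above 1 CPM in every library, with a summed level of 4191 to 4201 CPM in controls and 2635 to 2886 CPM after knockdown. Of the markers of other cells, 5 of 6 fibroblast, 5 of 6 leukocyte and 4 of 5 listed endothelial genes stayed under 1 CPM in every library, and none was at 0 throughout. The part of that shift in squamous markers in the results on peroxisome genes was not tested.

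New peroxisomal proteins are made in the cytosol and imported whole. PEX3, PEX16 and PEX19 insert membrane proteins. PEX5 and PEX7 carry matrix enzymes, by different targeting signals, to a dock of PEX13 and PEX14. RING ligases such as PEX2 and PEX10 then ubiquitinate the receptor, and an ATPase complex with PEX6, held by PEX26, pulls it back out. Inside, beta-oxidation shortens fatty acyl chains, alpha-oxidation removes single carbons from branched ones, and GNPAT and AGPS build the ether bond of plasmalogens. In bulk RNA, fewer cells of a kind and less RNA per cell cannot be told apart.

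Among the biogenesis genes 2 of 13 rose (PEX7 and PEX10) and none fell (0 in edgeR and in DESeq2, where PEX3 alone, 1 gene, was lower at an unadjusted edgeR p under 0.05), with a median log2 change of 0.04. Among the lipid enzymes and membrane proteins 7 of 20 tested genes rose and 2 fell, with a median of 0.03. The median over all 11841 tested genes was 0.00. A gene is counted as changed at an adjusted p under 0.05 in edgeR's quasi-likelihood test over all tested genes, and by that rule 30.7% of all tested genes changed (15.0% rose and 15.6% fell). The 11 changed genes, 33.3% of the 33, are thus near the background as a total. With the replicate number as a block, 8 rose and 2 fell, against 28.6% of all tested genes (14.0% rose and 14.7% fell). DESeq2 gave 10 rises and 2 falls, against 31.9% (15.7% rose and 16.3% fell). By class the shares in the edgeR analysis were 15.4% for biogenesis and 45.0% for the enzymes. The difference between the classes was not tested. The groups of CPM values did not overlap in 12 of the 33 genes, where 30.2% of all tested genes had no overlap. Both conditions, a passed test and no overlap, held for 9 of the 33, against 25.8% of all tested genes. The absolute log2 change had a median of 0.12 in the 33 genes and 0.11 in all tested genes.

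**Figure D1:**
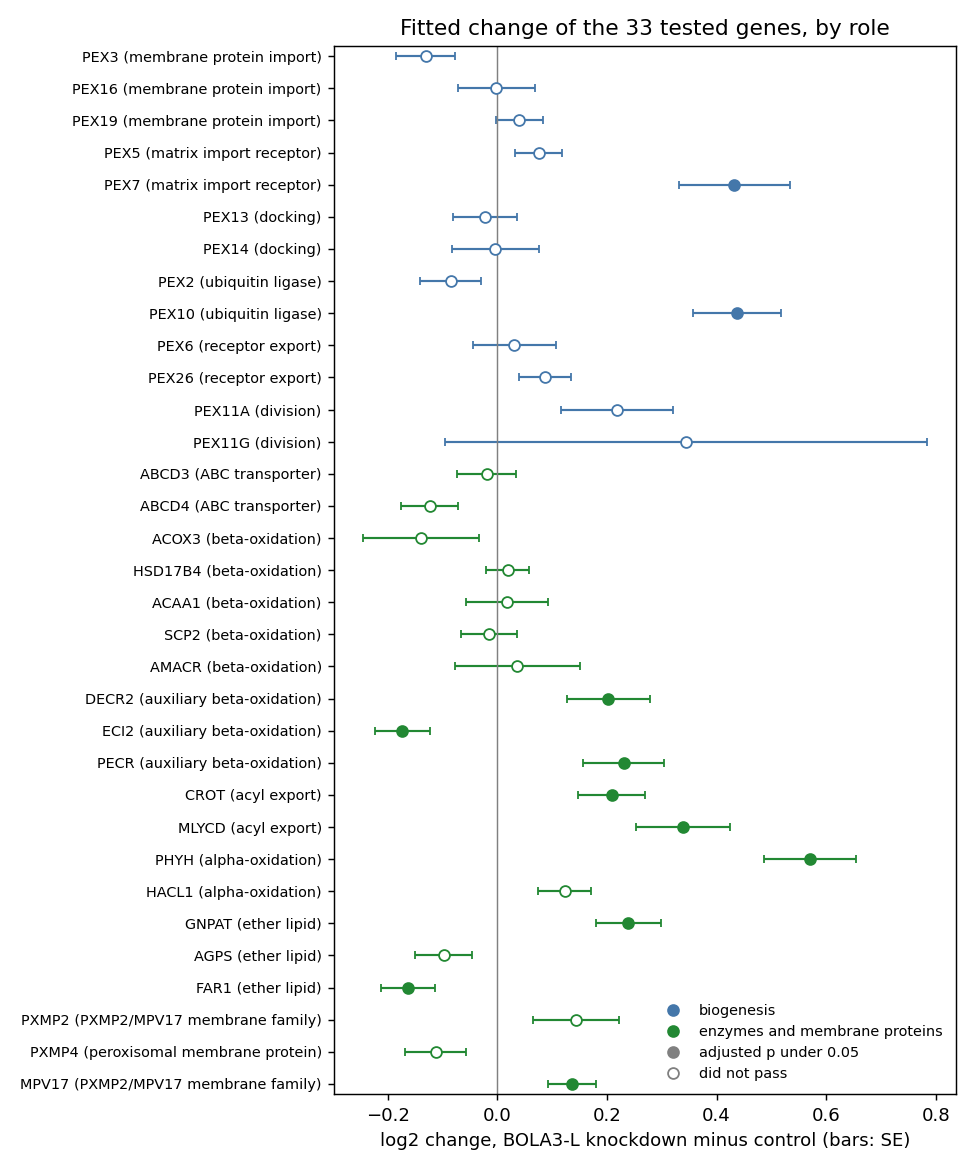
Fitted log2 change (x axis, BOLA3-L knockdown minus control, bars show the SE) of the 33 tested genes, one per line with its role, biogenesis in blue and enzymes and membrane proteins in green, filled where the adjusted p was under 0.05. PHYH at 0.57, PEX10 at 0.44 and PEX7 at 0.43 lie farthest right among the filled points, and ECI2 and FAR1 are the filled points left of 0.

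BOLA3-L knockdown replicate 1 stood apart from the other knockdown libraries, at 20.1 on the second principal component, where the others lay between -10.1 and -4.81. In the peroxisome genes its deviation followed GC content. Over the 33 genes the log2 CPM of that library minus the mean of the other knockdown libraries had a Pearson r of -0.66 with the GC content of the transcripts, and -0.79 without PEX11G, which rests on 3 to 19 counts per library. Over 11584 tested genes with a GC value, r was -0.60. These are correlations across genes of the same libraries, given as a description. AT-rich AGPS, FAR1 and CROT were highest in that library, and, PEX11G aside, GC-rich PEX16, PEX10, PEX14 and ACAA1 were farthest below the others. Without it 9 of the 33 genes rose and 4 fell, against a background of 42.7% (21.2% rose and 21.5% fell), and the 2 added falls were PEX3 and AGPS.

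**Figure D2:**
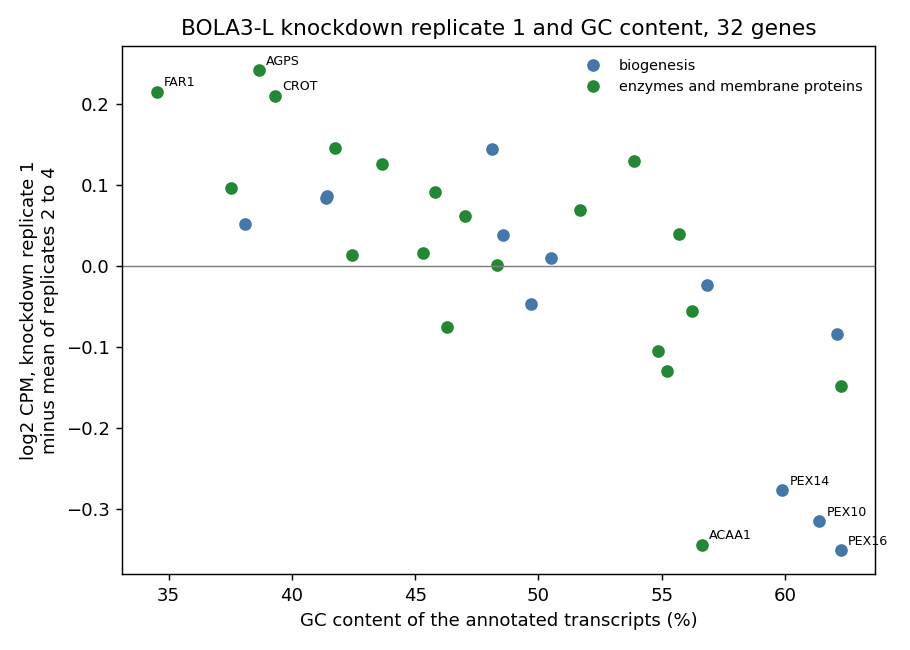
Log2 CPM of BOLA3-L knockdown replicate 1 minus the mean of replicates 2 to 4 (y axis) against the GC content of each gene's annotated transcripts in percent (x axis), 1 point per gene for 32 genes, PEX11G left out. AGPS, FAR1 and CROT lie above 0.2 at low GC content, and PEX16, ACAA1, PEX10 and PEX14 lie lowest at high GC content.

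Promoter sequences were looked at because 9 genes moved in the same direction. RefSeq promoters of GRCh38.p14, running from 250 bases before to 50 after a transcript start, were found for 30 of the 35 genes. Of 5 motifs searched, the hexamer CACGTG, an E-box that reads the same on both strands, occurred in 5 of them, against 8.77% of 27305 genes with a promoter in the table (7.26% of 35116 promoters). Of these 5 genes 4 rose, and the other, PEX11G, was nearly silent. The stretches around the hexamer, in capitals, are shown for the 4 that rose, so that its setting can be compared.

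PEX10: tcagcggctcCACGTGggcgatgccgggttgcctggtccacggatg

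GNPAT: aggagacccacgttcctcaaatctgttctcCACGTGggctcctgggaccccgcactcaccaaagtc

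PECR: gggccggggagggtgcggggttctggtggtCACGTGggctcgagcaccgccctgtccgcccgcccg

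MPV17: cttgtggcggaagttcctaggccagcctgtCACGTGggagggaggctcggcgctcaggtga

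They lie at chr1:2414032-2414077 on the minus strand (PEX10), chr1:231240965-231241030 on the plus strand (GNPAT), chr2:216081805-216081870 on the minus strand (PECR) and chr2:27323048-27323108 on the minus strand (MPV17). The hexamer begins 31 bases before the start in PECR, 217 before it in GNPAT and 240 before it in PEX10, and 19 bases after it in MPV17. It is followed by GG in these 4, which are shown because they rose, and by TC in PEX11G. How often GG follows the hexamer in other promoters was not counted. Across all tested genes, however, those with the hexamer did not rise more often: 13.8% of 1224 rose, against 15.1% of 8391 without it. The hexamer was searched after the changes had been seen. The direct repeat DR1, the form that PPAR with RXR is known to bind, was searched on both strands with up to 2 mismatches and found in ABCD4 and AGPS, 2 of 30 genes, against 3.63% of all genes. Neither gene passed the test. None of the 30 holds an exact copy (0), which 0.0293% of all genes do. The ETS core CCGGAAG was found in 8 of the 30, against 12.2% of all genes, and MLYCD and GNPAT are the members of that set that rose. The pentamer CCAAT was found in 12 of the 30, against 39.7% of all genes, and TCACCCCAC, a sterol response element, in none (0), against 0.535%. These motifs were also searched on both strands.

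Membrane protein import showed no change that passed the test. PEX3, the membrane anchor for incoming proteins, averaged 48.0 ± 2.65 CPM without and 43.9 ± 2.13 CPM with knockdown (SD, n = 4 each; log2 change -0.13, edgeR adjusted p 0.0760), and it fell when BOLA3-L knockdown replicate 1 was left out (-0.14, adjusted p 0.0152). Its chaperone PEX19 had a log2 change of 0.04 and PEX16 one of 0.00. In PEX16 the knockdown libraries were at 31.8, 39.9, 41.0 and 40.7 CPM, the first of them alone below the controls at 37.0 to 40.6 CPM.

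The import receptors differed in outcome. PEX7, the receptor for the N-terminal targeting signal that PHYH, ACAA1 and AGPS carry (identifier 5191, chromosome 6, 136822592 to 136913934), was counted in control replicates 1 to 4 at 6.66, 6.25, 7.25 and 7.90 CPM. After knockdown it was at 9.23, 10.4, 9.58 and 8.67 CPM, so every knockdown library lay above every control. This was a log2 change of 0.43 (SE 0.101, edgeR adjusted p 0.00309), on 198 to 367 counts per library. PEX5, the receptor for the far more common C-terminal signal, had a mean of 75.4 ± 2.16 CPM without and 79.4 ± 2.26 CPM with knockdown (SD, n = 4 each), which did not pass (log2 change 0.08, adjusted p 0.196). The test of a difference between the receptors was not made. At the dock, PEX13 and PEX14 had log2 changes of -0.02 and 0.00, with adjusted p of 0.801 and 0.977 in edgeR.

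Of the ubiquitin ligase RING subunits, PEX10 rose (identifier 5192, chromosome 1, 2403974 to 2413827). Its controls were at 17.2, 17.2, 16.0 and 15.6 CPM and its knockdown libraries at 18.8, 21.6, 24.4 and 24.4 CPM. The groups did not overlap, and the lowest knockdown value was that of replicate 1. This was a log2 change of 0.44 (SE 0.0801, edgeR adjusted p 0.000433), or 0.51 without that library. Exons of RER1 on the opposite strand cover 39.1% of the exon bases of PEX10, and whether counting used strand is not given in the sources used here, so reads of the 2 genes may not be separated. PEX2 had a log2 change of -0.09 (adjusted p 0.261) and did not pass.

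In receptor export, PEX6, at 12.4 ± 0.480 CPM without and 12.7 ± 0.739 CPM with knockdown (SD, n = 4 each), and PEX26 did not pass, with log2 changes of 0.03 and 0.09. The division factors PEX11A (9.54 ± 1.43 and 11.1 ± 0.702 CPM, SD, n = 4 each) and PEX11G did not pass (adjusted p 0.118 and 0.593). PEX11G, the lowest tested gene of the list, was counted at 0.517, 0.347, 0.395 and 0.0912 CPM in controls and at 0.159, 0.539, 0.523 and 0.470 CPM after knockdown, with the groups overlapping over nearly their whole range. In controls PEX11A stood at 3.50 ± 0.520 FPKM and PEX11G at 0.176 ± 0.0933 FPKM (SD, n = 4 each). FPKM is the count scaled to gene length and library total.

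Alpha-oxidation showed the largest rise of the list. PHYH (identifier 5264, chromosome 10, 13277799 to 13300064) was counted at 11.6, 11.4, 9.13 and 9.82 CPM in controls and at 15.0, 15.8, 15.7 and 15.9 CPM after knockdown. The knockdown libraries lay close together and all above the controls. It rose by a log2 change of 0.57 (SE 0.0844, edgeR adjusted p 5.39e-05; exact two-sided permutation p 0.0286). Without any single library the adjusted p ranged from 7.59e-08 to 0.000589. HACL1, the lyase of a later step, stood at 44.5 to 46.7 CPM in controls and 47.5 to 51.9 CPM after knockdown. Its groups did not overlap either, but the log2 change of 0.12 did not pass in edgeR (adjusted p 0.0622) and did in DESeq2 (0.0478). A promoter of PHYH at chr10:13299714-13300013, minus strand, is shown because that gene had the largest rise. It lies wholly inside the span of the gene given above, so it belongs to a start other than the outermost. The stretch holds neither CACGTG nor the direct repeat, and no capitals are used in it.

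PHYH: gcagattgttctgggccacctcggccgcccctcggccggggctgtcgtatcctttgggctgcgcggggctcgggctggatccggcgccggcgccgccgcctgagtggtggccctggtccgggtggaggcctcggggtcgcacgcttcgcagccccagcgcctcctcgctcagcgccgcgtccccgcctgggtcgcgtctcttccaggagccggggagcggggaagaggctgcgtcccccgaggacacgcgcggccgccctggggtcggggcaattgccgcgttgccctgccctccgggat

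The core enzymes of peroxisomal beta-oxidation did not pass the test in any case (0 of 5 by edgeR, 0 also without adjustment at 0.05, and 0 by DESeq2). These are the oxidase ACOX3, the multifunctional HSD17B4, the thiolases ACAA1 and SCP2 and the racemase AMACR, and their log2 changes lay between -0.14 and 0.04. HSD17B4, the highest of them, was counted at 132, 128, 130.4 and 132 CPM in controls and at 133, 139.7, 127 and 129.6 CPM after knockdown. The groups overlapped, with knockdown libraries both above and below the controls. ACOX3 was at 7.89 ± 0.810 and 7.16 ± 0.674 CPM (SD, n = 4 each; adjusted p 0.349). Of AMACR 71.5% of 75-base windows also occur in other genes, above all in the readthrough gene C1QTNF3-AMACR, so its counts are uncertain.

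The 3 genes listed as auxiliary enzymes, ECI2 and DECR2 for unsaturated chains and the reductase PECR, all changed, and not in the same direction. ECI2, an enoyl-CoA isomerase (identifier 10455, chromosome 6, 4115706 to 4135575), fell from 42.9, 43.4, 43.1 and 41.5 CPM to 38.2, 38.1, 35.7 and 39.5 CPM. Its knockdown values all lay under the controls (log2 change -0.17, SE 0.0506, edgeR adjusted p 0.0138), but the call was lost without BOLA3-L knockdown replicate 3 (adjusted p 0.0538). Genes on the opposite strand cover 29.8% of its exon bases. PECR, a trans-2-enoyl-CoA reductase (identifier 55825, chromosome 2, 216029088 to 216081809), was at 12.0, 11.6, 11.4 and 12.6 CPM in controls and at 14.0, 14.4, 14.3 and 13.2 CPM after knockdown, again without overlap. It rose by a log2 change of 0.23 (SE 0.0734, edgeR adjusted p 0.0230), and leaving out replicate 2 or 3 of either group ended the call (0.0584 to 0.0703). DECR2, a dienoyl-CoA reductase (identifier 26063, chromosome 16, 401885 to 412482), had controls at 17.3, 15.1, 16.0 and 16.6 CPM and knockdown libraries at 17.2, 17.2, 20.1 and 20.1 CPM. Here the groups overlapped, and the adjusted p of 0.0484 was the closest to the threshold of all 11 changed genes (log2 change 0.20, SE 0.0752). Leaving out any of control replicates 2 to 4, or replicate 3 or 4 of the knockdown, ended the call (0.0758 to 0.15), and 20.3% of its windows are shared with NME4.

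CROT and MLYCD both rose. CROT, the carnitine octanoyltransferase that hands medium chains to carnitine (identifier 54677, chromosome 7, 87345664 to 87399794), went from 33.5, 30.8, 34.8 and 34.2 CPM to 42.9, 38.3, 36.3 and 36.8 CPM. There was no overlap, and replicate 1 was the highest knockdown library (log2 change 0.21, SE 0.0618, edgeR adjusted p 0.0153). Without control replicate 2 the call was lost (adjusted p 0.0636). MLYCD, the decarboxylase of malonyl-CoA (identifier 23417, chromosome 16, 83899115 to 83927031), was at 10.7, 10.1, 10.1 and 11.9 CPM in controls and at 12.8, 12.8, 13.3 and 15.3 CPM after knockdown. Every knockdown library was above every control (log2 change 0.34, SE 0.0858, edgeR adjusted p 0.00566). CRAT, the short-chain counterpart of CROT, had 1 to 5 counts in each control and 3 to 14 in each knockdown library, too few to test.

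Within ether lipid synthesis the genes moved in opposite directions. GNPAT, the acyltransferase of the first step (identifier 8443, chromosome 1, 231241212 to 231277973), was at 26.3, 26.2, 25.3 and 24.5 CPM in controls and at 32.2, 31.3, 29 and 28.2 CPM after knockdown. It rose with no overlap (log2 change 0.24, SE 0.0594, edgeR adjusted p 0.00505). FAR1, the reductase that supplies the fatty alcohol (identifier 84188, chromosome 11, 13668668 to 13732346), was at 143, 145, 146 and 149 CPM in controls and at 145, 130.3, 126 and 119 CPM after knockdown. It fell (log2 change -0.16, SE 0.0493, edgeR adjusted p 0.0167), although BOLA3-L knockdown replicate 1 lay within the controls and the exact permutation test gave 0.0571. Without that library the log2 change was -0.22 (adjusted p 2.17e-07). Leaving out replicate 4 of either group, or replicate 3 of the knockdown, ended the call (0.0552 to 0.0623). AGPS, which places the ether bond, had the same pattern of libraries: 136, 129, 132 and 134 CPM in controls, then 140.3 CPM in replicate 1 and 124, 117 and 116 CPM in replicates 2 to 4. It did not pass with all libraries (log2 change -0.10, adjusted p 0.163) and fell without that replicate (-0.16, adjusted p 6.68e-05). FAR2, the paralog of FAR1, had 0 counts in every control and 1 count in BOLA3-L knockdown replicate 3 only, while FAR1 stood at 27.5 ± 0.50 FPKM in controls (SD, n = 4).

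The transporter genes did not pass. ABCD3, which brings branched and long acyl chains into the peroxisome, was at 52.2 ± 3.34 and 51.5 ± 2.46 CPM (SD, n = 4 each). ABCD4, a relative of ABCD3 known mainly for lysosomal cobalamin export, stood at 43.2 ± 1.33 and 39.6 ± 1.90 CPM (log2 change -0.12, adjusted p 0.0810). In controls ABCD4 was at 13.4 ± 0.409 FPKM and ABCD3 at 12.0 ± 0.758 FPKM (SD, n = 4 each). Among the membrane proteins MPV17 rose (identifier 4358, chromosome 2, 27309492 to 27323097). Its controls were at 84.1, 84.7, 82.6 and 84.9 CPM and its knockdown libraries at 98.7, 92.8, 89.4 and 88.6 CPM, with no overlap (log2 change 0.14, SE 0.0435, edgeR adjusted p 0.0235). Leaving out control replicate 1 or 3, or replicate 2 of the knockdown, ended the call (0.0562 to 0.0751). MPV17 is best known as a protein of the mitochondrial inner membrane, so its rise is not one of a gene specific to peroxisomes. Whether the other changed genes are specific to peroxisomes was not examined. PXMP2, a relative of MPV17 (log2 change 0.14, edgeR adjusted p 0.180), and the unrelated PXMP4 (-0.11, adjusted p 0.133) did not pass, though their groups did not overlap. Of the windows of PXMP2, 26.1% are shared with AC135586.2.

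**Figure D3:**
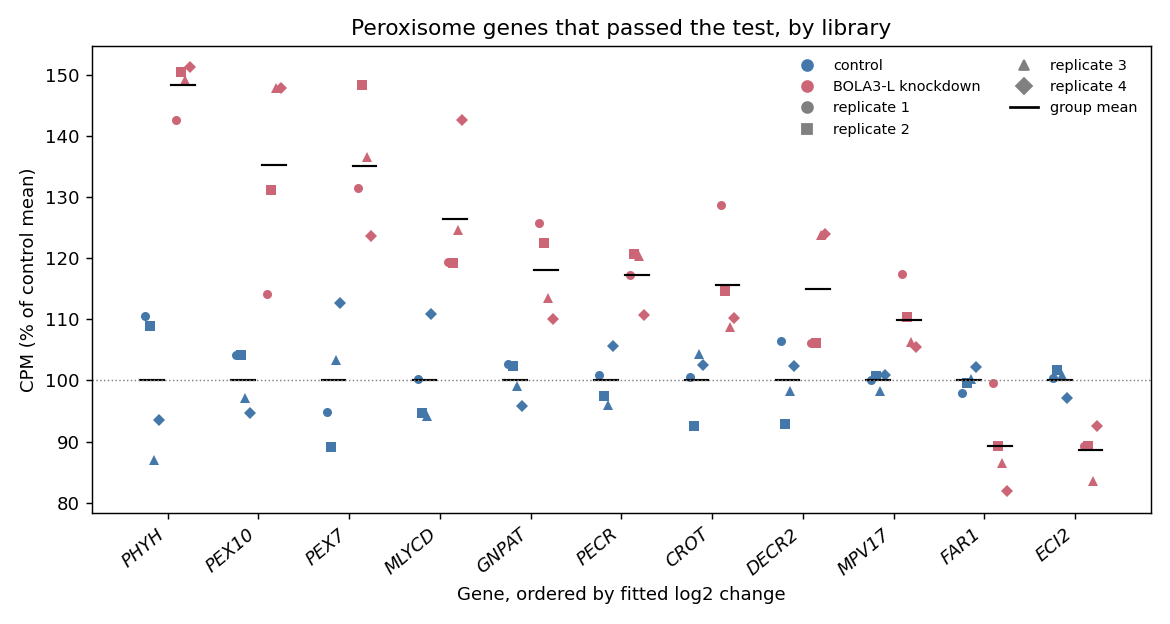
CPM of the 11 genes that passed the test, in percent of the control mean (y axis), with blue points for control and red points for BOLA3-L knockdown libraries, marker shapes for replicates and black bars for group means. PHYH is highest, FAR1 and ECI2 lie below 100, and the groups overlap in DECR2 and FAR1.

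Levels per gene length spanned a wide range. In controls MPV17 was highest (70.4 ± 0.906 FPKM), then HSD17B4 (46.5 ± 0.555 FPKM), ECI2 (28.9 ± 0.596 FPKM) and FAR1 (27.5 ± 0.50 FPKM; SD, n = 4 each). PEX16 (22.9 ± 0.904 FPKM) and HACL1 (22.5 ± 0.515 FPKM) came next and differed by less than their SD. The genes that rose were mostly in the lower part of that order: PHYH at 5.51 ± 0.637, PEX10 at 5.22 ± 0.255, PEX7 at 2.42 ± 0.248, PECR at 2.39 ± 0.10 and MLYCD at 0.814 ± 0.0623 FPKM in controls. PEX7 was below its cargoes in both groups: after knockdown it reached 3.32 ± 0.250 FPKM, beside 8.29 ± 0.194 for PHYH, 16.5 ± 1.90 for ACAA1 and 13.6 ± 1.29 for AGPS. The sum over all 35 genes was 428 to 435 FPKM in controls and 441 to 457 FPKM after knockdown. Over all tested genes it was 360075 to 364072 FPKM in controls and 358977 to 370719 FPKM after knockdown. FPKM is not TMM scaled, and TMM factors were 0.992 to 0.995 in controls and 1.003 to 1.012 after knockdown. MPV17 alone went from 70.4 to 78.4 FPKM. The difference in the sum was not tested.

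**Figure D4:**
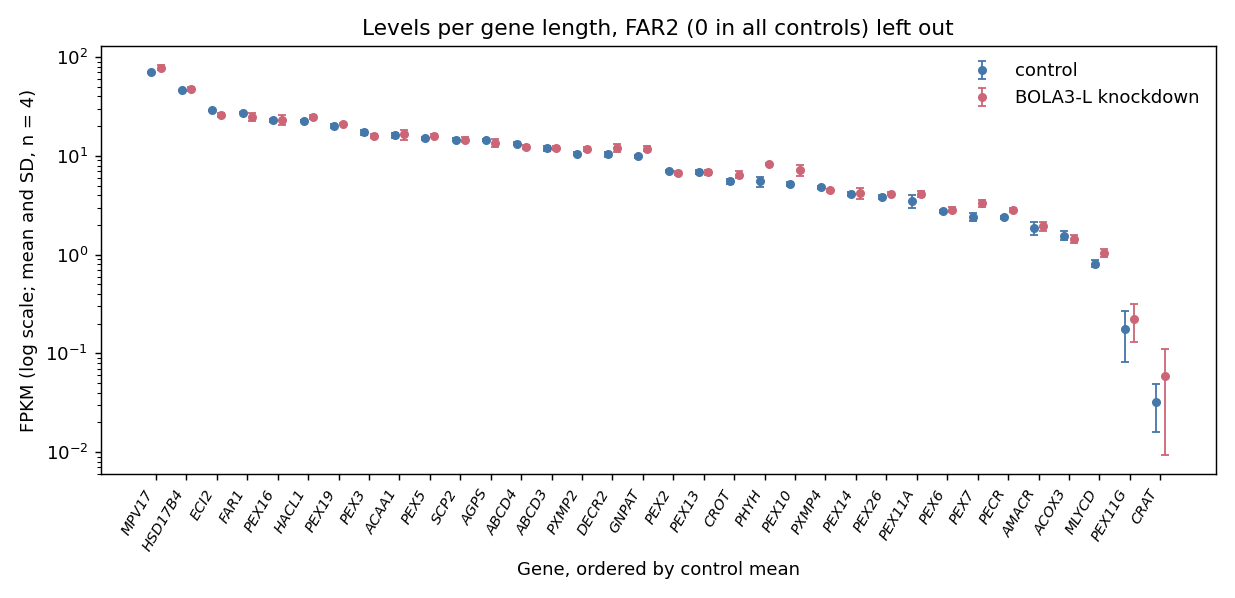
FPKM on a log axis (y) of 34 genes ordered by their control mean (x axis), blue for control and red for BOLA3-L knockdown, points for the mean and bars for the SD of 4 libraries. MPV17 is highest and PEX11G and CRAT are far below the rest, and the rises of PHYH, PEX10 and PEX7 lie in the lower part of the order.

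Other genes of the organelle were read from lists of related functions, each to be read against the 15.0% of all tested genes that rose and the 15.6% that fell. Of 17 tested lipid enzymes, transporters and matrix proteins outside the 35, 3 rose and 3 fell. TYSND1, the protease that trims imported matrix enzymes such as the oxidases and thiolase, rose to 53.1 ± 4.50 CPM from 37.3 ± 0.248 in controls (SD, n = 4 each; 0.51 on the log2 scale, edgeR adjusted p 2.85e-06). DEPP1, a small regulator of peroxisomal catalase and autophagy, fell from 7.21 ± 0.713 to 2.95 ± 0.396 CPM (-1.29, adjusted p 6.36e-07), more than any of the 35. ACBD4 rose (0.44) while its relative ACBD5, a tether to the endoplasmic reticulum, fell (-0.16), and the latter call was lost without BOLA3-L knockdown replicate 4. MVK, a mevalonate kinase also assigned to peroxisomes, fell by 0.23 on the log2 scale, and NUDT7, a coenzyme A hydrolase, rose (0.42), a call that held only when BOLA3-L knockdown replicate 4 was the library left out.

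Of 10 tested antioxidant and oxidase genes PRDX1 rose (log2 change 0.18) and XDH, xanthine dehydrogenase, fell (-0.48, from 12.6 ± 1.07 to 8.99 ± 1.40 CPM, SD, n = 4 each). Catalase, CAT, the best known peroxisomal enzyme, averaged 61.2 ± 1.26 CPM without and 56.7 ± 2.47 CPM with knockdown (SD, n = 4 each) and missed the threshold (-0.11, adjusted p 0.0750). Its groups did not overlap, and with BOLA3-L knockdown replicate 1 left out it fell (-0.13, adjusted p 0.00882). In a list for division and tethering of the organelle, 2 of 12 genes fell and 1 rose. DNM1L, the GTPase that cuts both mitochondria and peroxisomes, fell from 254 ± 6.97 to 210.3 ± 16.4 CPM (-0.27, adjusted p 0.000233), and TMEM135 from 30.1 ± 1.15 to 18.9 ± 1.72 CPM (-0.68, adjusted p 4.74e-07; SD, n = 4 each, edgeR). VAPB, the membrane partner of ACBD5, rose (0.13). Of 11 genes tied to removal of peroxisomes by autophagy 4 fell, OPTN (-0.25), ACBD5, USP30 (-0.23) and TNKS2, and ATM rose (0.17). The calls of ATM, USP30 and TNKS2 were each lost when some single libraries were left out, TNKS2 with any library but BOLA3-L knockdown replicate 1, ATM with control replicates 1 to 3 or replicate 3 of the knockdown, and USP30 with control replicate 4 or replicates 2 or 3 of the knockdown.

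On a list for later steps of plasmalogen metabolism, many of them in the endoplasmic reticulum and shared with other phospholipids, 4 of 13 tested genes rose and 3 fell. AGPAT3 (0.24), PLPP3 (0.52), LPIN2 (0.25) and SELENOI rose, and LPIN1 (-0.46), AGPAT2 and PLPP2 fell. SELENOI lost its call without any of control replicates 1 to 3 or replicate 2 of the knockdown, and PLPP2 without any of control replicates 1 to 3. A further list held 8 tested genes for PPAR and RXR receptors and their coregulators, the corepressor NCOR1 included. Of these, PPARA fell to 5.38 ± 0.532 CPM from 7.81 ± 0.367 in controls (SD, n = 4 each; -0.54 on the log2 scale, edgeR adjusted p 0.000769) and PPARGC1B fell too (-0.25). PPARA is the nuclear receptor known to drive peroxisomal beta-oxidation genes in liver. None of the 8 rose with all libraries (0, in edgeR, with 0 at an unadjusted p under 0.05), and RXRA, the partner of the PPAR receptors, rose without BOLA3-L knockdown replicate 1 (0.14, adjusted p 0.00117). The median log2 changes of these lists lay between -0.05 and 0.07, beside 0.00 for all tested genes.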

How the data were processed

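RNA of KYSE150 cells was extracted with TRIzol and made into libraries with the VAHTS Universal V6 kit, per the labels' protocols. Paired reads of 150 bp were filtered with fastp, per the series' design text. The genome build is hg38, per the submitters' processing notes. For aligner, counter, strand and annotation, the sources used here name nothing. The deposited table holds raw counts per gene for 8 libraries. A second deposited table holds FPKM values. These deposited FPKM values follow from the counts: dividing by library total and a length per gene returned all 110558 values above 0 within 1e-06.

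Counts were filtered with filterByExpr, scaled by TMM and tested over 11841 genes by the robust quasi-likelihood F-test of edgeR, with Benjamini-Hochberg adjustment at 0.05. CPM values use TMM-scaled library sizes, and log2 CPM a prior count of 2. The SE is the absolute log2 change over the square root of F. Libraries of a group differed by more than sampling noise. The steps were tested on simulated data, where edgeR recovered 34 of 50 planted changes of 1.25-fold and 46 of 50 of 1.5-fold. It called 9 of 11641 unchanged genes. Changes under 1.25-fold were not planted, and no simulated library deviated by GC content. Tests used edgeR 4.0.16, DESeq2 1.42.0 and limma 3.58.1 in R 4.3.3, and tables and plots pandas 2.3.3 and matplotlib 3.10.9 in Python 3.11.15.

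RefSeq (GRCh38.p14) gave coordinates and promoters. GENCODE v29 gave the exons for the overlap, and the transcript sequences for GC content and shared 75-base windows (every 25 bases). GC content was taken over all transcripts of a gene together, so bases shared by transcripts count more than once. All 35 listed genes were found in the former table of genes and 30 in that of promoters. Protein targeting signals were planned and are not analysed here.

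The members and lists were chosen with earlier results of these data known. Named are all 35 genes, with values in every library for those that passed without overlap and for 1 low (PEX11G) and 1 high (HSD17B4) gene that did not pass, and up to 4 genes of each further list by smallest p. Values in every library for FAR1, DECR2, AGPS and PEX16, ranges for HACL1, and any further gene named from those lists, were chosen after their values were seen. Alternatives were RLE and upper quartile scaling, no filter, at least 1 CPM in 4 libraries, a replicate block, DESeq2, each library left out, and limma on log2 FPKM (pseudocount 1 or 0.1 with at least 0.5 FPKM in 4 libraries, or 1 with no minimum). Some genes of the further lists are not reported here.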

Additional observations from a re-analysis of the deposited data

Results flagged for a closer look

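Of 68 groups of 4 libraries, 34 genes in controls and knockdown, 3 held a library far from the other libraries of its group by Dixon's criterion, and chance flags about 1 group in 20. PEX16 was at 31.8 CPM in BOLA3-L knockdown replicate 1, while the other knockdown libraries were at 39.9 to 41.0 CPM. PEX5 was at 82.8 CPM in BOLA3-L knockdown replicate 2, with the others at 78.1 to 78.4 CPM. AMACR was at 6.73 CPM in BOLA3-L knockdown replicate 4, with the others at 8.12 to 8.37 CPM. None of the 3 genes passed the test with all libraries, and none did when any single library was left out.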

How the results depend on the processing

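Of the 11 called peroxisome genes 5 (PHYH, PEX10, PEX7, MLYCD and GNPAT) kept their call under all 17 alternatives, and BOLA3 did too. No call reversed. The number that rose was 9 and ranged from 8 with the replicate block to 11 with limma on log2 FPKM (pseudocount 1 or 0.1, with the minimum). The number that fell was 2, and 1 with limma on log2 FPKM in all 3 forms, where FAR1 lost its call (adjusted p 0.0629, and 0.124 with no minimum) and HACL1 and PXMP2 rose. Rises against falls were thus 11 against 1 with the minimum and 10 against 1 with no minimum, where DECR2 lost its call too. The same holds for the enzymes, 7 and 2 in the main analysis and 1 fall in those forms. Over all tested genes rises also outnumbered falls in the limma analysis with pseudocount 1, by 1879 against 1387. The median log2 change of all tested genes in limma with the minimum was 0.018 (pseudocount 1) and 0.020 (pseudocount 0.1). In the main analysis it was 0.00. Over single libraries left out, 6 to 9 of the 35 rose and 0 to 4 fell. Among the enzymes, with single libraries left out, 4 to 7 rose and 0 to 3 fell, with 4 rises without control replicate 2 or 3. No enzyme fell (0) without BOLA3-L knockdown replicate 3, and 1 fell when replicate 4 of either group was left out. Among the biogenesis genes 2 rose in every case, and 0 to 1 fell, the 1 being PEX3 without BOLA3-L knockdown replicate 1. The enzymes' median log2 change ranged from 0.00 to 0.07 over the alternatives and that of the biogenesis genes from 0.03 to 0.08. No pairing of libraries by the replicate numbers in the titles was visible, though weak correlations cannot exclude one. Deviations of same-numbered libraries had correlations of -0.04 to 0.09, and 2 of 8 libraries correlated best with their own number. With the replicate block 8 peroxisome genes rose and 2 fell, DECR2 losing its call (adjusted p 0.0546), and 3392 of all tested genes changed, against 3630 without it. The BOLA3 log2 change with the block was -1.66. Depth limits PEX11G, CRAT and FAR2, at 0 to 19 counts per library.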

Other observations

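The deposited table assigns 77 genes to the KEGG term for the peroxisome, and all 35 genes described above are among them. Of the other 42, 32 had enough counts for the test, and 7 rose and 5 fell. Among the rises were the superoxide dismutase SOD2, the isocitrate dehydrogenase IDH2, the acyl-CoA ligase ACSL1, PRDX1, PMVK and NUDT7. The falls were the acyl-CoA ligases ACSL3 and ACSL4, XDH, MVK and MPV17L2. The share changed was 37.5% in these 32 genes, 33.3% in the 33 genes above and 30.7% over all tested genes, and no test between them was made. Several of these genes also act outside the peroxisome.

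Some of the genes share a promoter region with a neighbour read in the other direction. The start of GNPAT lies 37 bases from that of C1orf131, whose log2 change was -0.02 (edgeR adjusted p 0.910) where GNPAT rose by 0.24. HACL1 starts 176 bases from BTD (log2 change -0.01), PEX3 110 bases from ADAT2 (0.08), ACOX3 54 bases from TRMT44 (0.13), PXMP2 245 bases from POLE (-0.06) and PEX13 289 bases from PUS10 (-0.05). None of these 6 neighbours passed the test in edgeR. Of 9 tested genes on a further list, for cargo imported into peroxisomes, 3 rose (IDE, TYSND1 and PMVK) and 2 fell (IDI1 and MVD). Over all tested genes 15.0% rose and 15.6% fell. The targeting signals of these proteins were not analysed here. IDE, a peptidase with a peroxisomal targeting signal, rose to 84.8 ± 4.15 CPM from 62.7 ± 2.71 in controls (SD, n = 4 each; 0.44 on the log2 scale, edgeR adjusted p 1.80e-06), with every knockdown library (79.9 to 90.1 CPM) above every control (59.9 to 66.1 CPM). IDI1, the isomerase that makes dimethylallyl diphosphate, fell (-0.26, edgeR adjusted p 0.000243), and so did MVD, a decarboxylase of the same pathway (-0.35, edgeR adjusted p 0.00146), both also with any single library left out.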
